A study of Mus musculus with 4 samples.

Results

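The comparison described here sets mouse embryonic stem cells given an inhibitor, the library labelled SO, against wild-type cells of the E14 line, the library labelled WT. Its members are all gene symbols with a value of at least 1 FPKM in either library, which kept 12586 of the 25170 symbols in the tables. FPKM is a read count scaled by transcript length and library depth. For each gene the difference is log2(FPKM + 1) in SO minus log2(FPKM + 1) in WT, and a gene is called higher or lower in SO when the difference reaches 1 in size. On this scale a difference of 1 is 2-fold for a well expressed gene and understates the fold of a gene with low values.

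The series holds 4 libraries, 1 for WT, 1 for SO and 1 for each of the knockouts, of Ldha (Ldha_KO) and of Ldhb (Ldhb_KO). WT and SO are both wild type in genotype, and the labels mark SO by its treatment alone, with no expansion of the abbreviation, no target, no dose and no time. No vehicle control is named, and the treatment protocol reads the same for WT and SO. Per the labels, all cells were kept in DMEM with serum and LIF, plated on gelatin, and the molecule sequenced was polyadenylated RNA.

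Embryonic stem cells come from the inner cell mass of the blastocyst and keep its pluripotency network active while LIF is present. They draw much of their energy from glycolysis, which ends in pyruvate, and lactate dehydrogenase reduces that pyruvate to lactate, using subunits encoded by Ldha and Ldhb. In such cultures a small share of cells at a time switches on genes otherwise transcribed in the 2-cell embryo, among them the Zscan4 family, and the series title places the study between Ldha, lactylation of the deacetylase Hdac1 and this 2-cell state.

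With 1 library on each side there was no replicate check, so every value below describes the size of a difference between these libraries and has no error and no p-value. Where a gene is given a pair of values, the first is its FPKM in WT and the second its FPKM in SO, and a difference is always of log2(FPKM + 1), SO minus WT. The deposited values summed to 526316 in WT and 471595 in SO, and low values placed the depth of SO at 1.05 times that of WT. Scaling SO to the sum of WT would move the median difference of all kept genes from -0.04 to 0.10. The list medians below are set against the -0.04 of all kept genes. The median fell with abundance, to -0.14 for genes at 20 to 100 FPKM in the higher library and -0.25 at 100 or more. A list of abundant genes is to be read against those values as well.

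The label of the cells was checked against markers. The 10 embryonic stem cell markers summed to 7112 FPKM in WT and 6786 in SO with 0 called, Pou5f1 standing at 1330.1 and 1115 and Dppa5a at 2378 and 2629.9. Of 20 fibroblast and feeder cell markers 7 were listed at 0 in both libraries (Dcn, Lum, Fap, Postn, Prrx1, Twist2 and Acta2), and the list summed to 54.4 in WT and 53 in SO, with 1 call among 5 kept. The call was Pdgfrb, a receptor of platelet-derived growth factor, at 0.949 and 3.35, and most of the sum was Thy1 at 47.4 and 42. In bulk RNA, more or fewer cells of a kind and more or less RNA in each cell cannot be told apart.

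The differences in SO were mostly small and, among the larger ones, mostly upward. Of the 12586 kept genes, 353 (2.8%) were called higher in SO and 62 (0.493%) lower, so 85.1% of the calls were on the higher side. Counts of called genes in the lists below are to be read against the 2.8% and the 0.493%. The median difference was -0.04, the 5th percentile was -0.56, the 95th percentile was 0.78, and 10365 genes (82.4%) differed by less than 0.5. A difference of at least 2 was reached by 39 genes on the higher side and 4 on the lower. Protein-coding genes made up 321 of the 353 higher and 55 of the 62 lower calls, and 12097 of the 12586 kept genes.

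The calls leaned to genes with low values. Among the 3285 genes with 1 to 5 FPKM in the higher library 4.02% were called higher and 0.791% lower, while among the 1027 genes with 100 or more 0.974% were higher and 0.0974% lower. Over the same strata the median difference moved from 0.14 through 0.01 and -0.14 to -0.25, so abundant genes sat below the median of all kept genes in SO. Of the genes called higher 112 were under 1 FPKM in WT and could not have been kept without a difference, and 23 of the genes called lower were under 1 in SO. At the filter itself, Fbxo47 at 0.89 and 1.0 was kept, and Tnnc2 at 0.174 and 0.999 was left out. At the threshold of the calls, M1ap (1.24 in WT and 3.49 in SO) was the last gene called higher and Ccn2 (10.5 in WT and 21.9 in SO) fell just short, while Htr6 (-1.02) was the last called lower and Psat1 (-0.99) was not called.

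**Figure D1:**
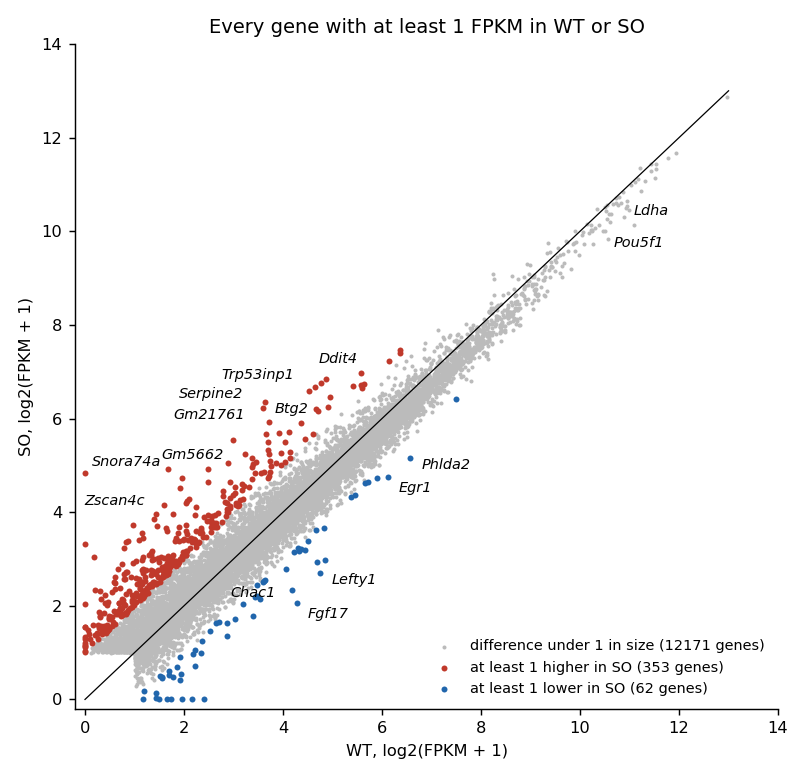
Each point is 1 of the 12586 kept genes, with log2(FPKM + 1) in WT on the x axis and in SO on the y axis; the line marks equal values. The 353 genes at least 1 higher in SO (red) and the 62 at least 1 lower (blue) lie mostly at low and middle levels, and Ldha and Pou5f1 lie close to the line.

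Genes of the 2-cell programme were higher in SO across every cluster of the list. Of 55 list members 32 were kept, 25 were called higher and 0 lower, with a median difference of 1.89 against -0.04 over all kept genes. The kept members include some that passed the filter only through SO, so this count and median are descriptions. The 25 called genes stood at 11.1 or less in WT, where Gm21761 was the highest, and the 23 members that were not kept stayed under 1 FPKM in SO too, the highest at 0.952.

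The Zscan4 genes encode zinc finger proteins with a SCAN domain that mark the 2-cell state and act on telomeres. All 5 members were called higher, and their values summed to 5.86 FPKM in WT and 50 in SO, with 33.1 in Ldha_KO and 6.24 in Ldhb_KO. Zscan4c stood at 2.03 FPKM in WT and 16.9 in SO, with 10.6 in Ldha_KO and 2.06 in Ldhb_KO (difference 2.56). Zscan4a was at 0.781 in WT and 9.28 in SO, Zscan4f at 1.04 and 6.75, and Zscan4b, the lowest of the family, at 0.299 and 2.62. By sum, SO was the highest of the 4 libraries, Ldha_KO came next, and WT and Ldhb_KO stood close together. The members are near-identical copies, and how reads shared between them were handled is unknown. Reads left out would be missing from the family sum as well as from the single values. Other genes of many copies stood low in both libraries, with Gapdh at 9.99 and 9.06 and Rpl3 at 12.5 and 9.50. The sums of the other 2-cell clusters carry the same limit.

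The promoters of 2 Zscan4 members, Zscan4c and Zscan4d, are shown because they carry the motif TGATTNNATCA, of the kind bound by the 2-cell factor Dux, in the same surroundings, written here as its reverse complement TGATNNAATCA. They are the 250 bases before the RefSeq start in GRCm38.p6, chr7:11005495-11005744 on the plus strand for Zscan4c and chr7:11166149-11166398 on the minus strand for Zscan4d, written 5′ to 3′ along the gene with the motif in capitals. These RefSeq windows come from a later build than the mm9 of the deposited tables, and no deposited value was placed by coordinate.
Zscan4c: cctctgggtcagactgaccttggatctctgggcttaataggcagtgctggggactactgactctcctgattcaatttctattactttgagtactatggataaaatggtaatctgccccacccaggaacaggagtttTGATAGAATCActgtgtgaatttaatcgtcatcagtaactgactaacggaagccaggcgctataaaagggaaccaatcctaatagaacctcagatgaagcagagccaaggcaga
Zscan4d: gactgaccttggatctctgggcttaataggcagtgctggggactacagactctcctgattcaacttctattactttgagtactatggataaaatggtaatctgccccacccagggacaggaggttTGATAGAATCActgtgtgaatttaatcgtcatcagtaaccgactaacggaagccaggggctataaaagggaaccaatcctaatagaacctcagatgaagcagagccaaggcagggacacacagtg
With both strands searched over 250 bases before to 50 after the start, the motif was found in 4 of the 13 called 2-cell genes with a promoter in RefSeq (Zscan4b, Zscan4c, Zscan4d and Zscan4f), which is 30.8%. It is held by 0.244% of the 27025 genes with such a window and by 0.11% of the kept genes among them. The Zscan4c and Zscan4d windows are identical at 90.4% of 311 aligned positions, so these matches are not separate occurrences. A match describes letters in the window and does not show binding. Dux itself was listed at 0 in WT and 0.161 in SO, with 0.254 in Ldha_KO and 0 in Ldhb_KO, below the filter in each library.

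Eif1a-like genes, copies related to a translation initiation factor, lie together on chromosome 12, and their values summed to 10.8 FPKM in WT and 107 in SO, with 80.3 in Ldha_KO and 9.64 in Ldhb_KO. All 6 kept of 8 members were called higher. Gm5662 was at 2.21 and 29.1, and its difference of 3.23 was the largest of the list. Gm2016 was at 2.91 and 25.5, Gm8300 at 2.77 and 22, and BB287469 at 0.234 and 3.97. Every kept member of the cluster was thus called from a WT value of at most 2.91.

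On chromosome 13, the Tcstv cluster holds genes transcribed in the 2-cell embryo and in the same rare stem cells. It summed to 13.9 FPKM in WT and 93.6 in SO, with 57.0 in Ldha_KO and 12.1 in Ldhb_KO, and its 3 kept members of 6 were called higher. Gm21761 carried most of that sum, at 11.1 and 73.7. Tcstv3 was at 1.45 and 7.52, and Gm20767 at 1.21 and 10.7. Tcstv1, listed at 0 in WT and 0.232 in SO, stayed under the filter.

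The Usp17l family encodes deubiquitinating enzymes and summed to 3.35 FPKM in WT and 30.2 in SO, with 23.7 in Ldha_KO and 2.95 in Ldhb_KO. Of 5 members 4 were called higher, and Usp17lb was at 0.815 and 9.49. Usp17ld, at 0.27 and 1.19, was not called. As for the other clusters, SO was the highest by sum and Ldha_KO the second.

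Among the 31 other 2-cell genes 13 were kept and 7 were called higher. Pramel7, of a family of leucine-rich repeat proteins of the early embryo, was at 2.09 in WT and 11.6 in SO, with 3.04 in Ldha_KO and 0.618 in Ldhb_KO. Zfp352, a zinc finger gene of the 2-cell embryo, was at 0.186 and 1.67, and Tdpoz4 at 0.525 and 4.1. Members already well above the filter in WT were not called: Dppa2 was at 76.3 and 63.4, Nelfa at 45.8 and 51.4, and Zfp809 at 19 and 19.1. Outside the list, and chosen after values were seen, 3 more genes were high in SO from low WT values, with Trim43a at 0.516 and 5.13, Eif4a3l1 at 3.29 and 18.5, and Gm4971 at 1.75 and 12.

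**Figure D2:**
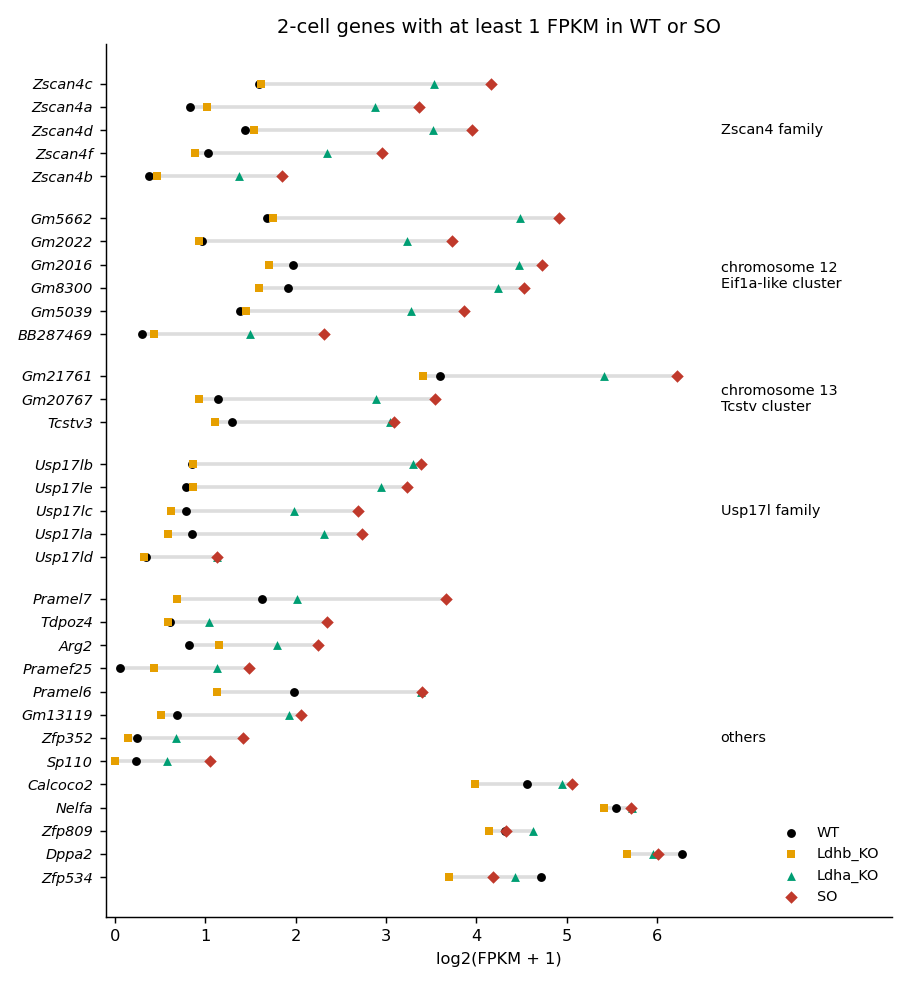
Values of the 2-cell genes in WT, SO, Ldha_KO and Ldhb_KO, as log2(FPKM + 1) on the axis, 1 point per gene and library. SO and Ldha_KO lie well above WT and Ldhb_KO in the Zscan4, chromosome 12, chromosome 13 and Usp17l groups, whose SO sums are 50, 107, 93.6 and 30.2 FPKM.

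Regulators of the 2-cell state showed no called gene. Of 42 listed regulators 36 were kept, 0 were called either way, and the median difference was -0.27 against -0.04 over all kept genes. Among all kept genes with 100 FPKM or more in the higher library the median was -0.25, close to that of the regulators. The median stayed below 0 under both rescalings of SO. Among the repressors, Trim28, a corepressor recruited by zinc finger proteins to retroviral sequences, was at 1015 in WT and 723 in SO. Ncl, encoding nucleolin, was at 439 and 283, and Lin28a, which encodes an RNA-binding protein, had the lowest difference among the repressors at -0.73. Among the activators, Smarcad1, a chromatin remodeller, was at 112 and 67.5, and Dppa4 at 74.5 and 64.5. Of the 36 kept regulators 32 were below WT as deposited, and 26 with SO scaled to the sum of WT.

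Targets of p53, the transcription factor activated by DNA damage and other stress, had the largest number of higher calls after the 2-cell list. Of 53 listed genes 51 were kept, 19 (37.3%) were called higher against 2.8% of all kept genes, and 0 were lower. The median difference was 0.59, and 42 of the 51 were above 0. Trp53 itself was at 179.9 in WT and 144 in SO, a difference of -0.32. The Trp53 transcript was thus not higher in SO.

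Feedback genes that restrain p53 were among the higher ones. Mdm2, the ubiquitin ligase that degrades p53, was at 41.9 FPKM in WT and 103 in SO, with 81.1 in Ldha_KO and 50.9 in Ldhb_KO (difference 1.28). Ccng1, cyclin G1, was at 81.8 in WT and 175 in SO. Mdm4, the partner of Mdm2, was at 28.7 and 43.4 and was not called.

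Genes of cell cycle arrest were led by Plk2, a polo-like kinase, at 6.89 FPKM in WT and 45.9 in SO, with 64.5 in Ldha_KO and 15.4 in Ldhb_KO (difference 2.57). Cdkn1a, the cyclin-dependent kinase inhibitor p21, was at 46.6 FPKM in WT and 125 in SO, with 129.6 in Ldha_KO and 84.4 in Ldhb_KO (difference 1.40). Plk2 was highest in Ldha_KO of the 4 libraries, and SO and Ldha_KO stood near each other for Cdkn1a. The arrest genes Gadd45a, at 38.8 and 33.7, and Sfn, at 61.7 and 55.1, were not called.

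Of the 14 kept genes that the list groups under cell death, 6 were called higher. They were Trp53inp1, Perp, Pmaip1, Dcxr, Bbc3 and Apaf1. Pmaip1, the BH3-only protein Noxa, was at 11.9 in WT and 44.3 in SO, with 23.9 in Ldha_KO and 14 in Ldhb_KO. Bbc3, the BH3-only protein Puma, was at 13.5 and 32.3, and Apaf1, the scaffold of the apoptosome, at 5.28 and 11.9. The effector Bax, at 266 and 251, and the inhibitor Bcl2l1, at 29.3 and 28.2, were not called. Fas, the death receptor, was kept only through SO, at 0.243 and 1.22, and was not called.

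Among the metabolic and stress targets 8 of 21 were called higher. Ephx1, an epoxide hydrolase, was at 8.41 in WT and 36.8 in SO, and Phlda3, an inhibitor of Akt, at 25.2 and 70.1. Polk, a polymerase that copies past DNA lesions, was at 4.12 and 10.8, and Cd80, a costimulatory ligand, at 3.09 and 17.4. The repair genes of the list were not called, with Xpc at 9.28 and 11 and Ddb2 at 7.07 and 7.35. Tap1 and Lif, which also belong to the antigen presentation and LIF lists, and Ddit4, which is also a hypoxia and an Atf4 target, complete the call list together with Ptpn14, a phosphatase of the Hippo pathway (3.49 and 9.3).

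A p53 half-site, searched on both strands over the same promoter window, was present in 15 of the 44 p53 list genes with a promoter (34.1%) and in 8.16% of kept genes. It was found in 4 of the 16 called genes with a promoter (Ccng1, Cdkn1a, Mdm2 and Polk) and in 11 of the 27 that were kept but not called. The motif was thus seen in this window no more often among called than among uncalled members of the list.

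Hypoxia targets, genes induced by the HIF transcription factors when oxygen is short, were also higher in SO. Of 48 listed genes 44 were kept, 12 (27.3%) were called higher against 2.8% of all kept genes, and 0 were lower, with a median difference of 0.51 against -0.04. The calls fell among genes of survival and mitophagy (6 of 16 kept) and of matrix and pH (5 of 12 kept), with 1 of 7 among the signals and 0 of 9 among the sensors. Hif1a, the oxygen-regulated subunit, was at 55.8 in WT and 31.6 in SO.

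Within the sensors, Egln3 and Egln1, prolyl hydroxylases that mark HIF for degradation and are HIF targets themselves, had the largest upward differences. Egln3 was at 9.49 FPKM in WT and 19 in SO, with 11.4 in Ldha_KO and 32.5 in Ldhb_KO (difference 0.93). Egln1 was at 7.35 in WT and 12.8 in SO. Neither reached the threshold.

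Ndufa4l2, a mitochondrial protein related to a cytochrome oxidase subunit, was at 22 FPKM in WT and 95.2 in SO, with 103 in Ldha_KO and 134 in Ldhb_KO (difference 2.07). Cox4i2, the oxygen-responsive isoform of a cytochrome oxidase subunit, was at 2.57 in WT and 9.84 in SO, with 13.2 in Ldha_KO and 18.2 in Ldhb_KO. Fam162a, a mitochondrial protein linked to hypoxic cell death, was at 80.8 and 167. For Ndufa4l2 and Cox4i2, WT was the lowest of the 4 libraries and Ldhb_KO the highest. Bnip3, a mitophagy receptor, was not called, at 75.9 and 116.

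The collagen prolyl hydroxylase P4ha2 was at 4.63 FPKM in WT and 24 in SO, with 17.2 in Ldha_KO and 20.9 in Ldhb_KO (difference 2.15), and P4ha1 at 14.5 and 37.2. Plod2, a collagen lysyl hydroxylase, was at 29.1 and 74.9, and Loxl2, which crosslinks collagen, at 4.05 and 11.3. Enzymes that modify collagen thus made up 4 of the 5 calls of the matrix and pH group. Car12, a carbonic anhydrase, was the other, at 0.454 and 3.88, whereas Car9 was at 1.01 and 1.42. Of the secreted signals, Adm, adrenomedullin, was called at 1.44 and 4.27, and Vegfa was not, at 14.4 and 23.6.

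The promoters of P4ha2, Fam162a and Ddit4 are shown because they hold the motif ACGTGC, the core of a hypoxia response element, and because these genes were called. They are RefSeq windows of GRCm38.p6, the 250 bases before the start, at chr11:54100674-54100923 on the plus strand, chr16:36071562-36071811 on the minus strand and chr10:59951771-59952020 on the minus strand, with the motif in capitals on whichever strand it lies (GCACGT is its reverse complement).
P4ha2: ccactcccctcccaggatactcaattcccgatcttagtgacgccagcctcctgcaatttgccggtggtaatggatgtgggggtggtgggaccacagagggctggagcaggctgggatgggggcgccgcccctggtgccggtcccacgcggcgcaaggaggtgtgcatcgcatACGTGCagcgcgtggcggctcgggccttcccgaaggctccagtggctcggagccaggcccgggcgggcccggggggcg
Fam162a: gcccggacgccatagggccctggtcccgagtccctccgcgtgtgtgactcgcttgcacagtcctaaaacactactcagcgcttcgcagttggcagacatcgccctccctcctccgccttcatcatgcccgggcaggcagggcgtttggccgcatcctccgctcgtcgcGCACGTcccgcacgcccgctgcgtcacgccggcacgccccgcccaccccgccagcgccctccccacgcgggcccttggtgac
Ddit4: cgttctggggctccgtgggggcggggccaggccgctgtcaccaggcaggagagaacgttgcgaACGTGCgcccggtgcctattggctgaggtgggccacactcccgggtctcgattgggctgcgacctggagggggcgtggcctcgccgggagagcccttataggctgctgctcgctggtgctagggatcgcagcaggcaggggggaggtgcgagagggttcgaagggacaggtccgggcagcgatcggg
ACGTGC was found, on either strand, in 17 of the 33 hypoxia list genes with a promoter (51.5%), against 9.81% of kept genes and 6.68% of all genes in the promoter table. The shorter ACGTG, which it contains, is in 29.8% of kept genes. ACGTGC was present in 5 of the 7 called genes with a promoter and in 11 of the 24 that were kept and not called. Among all genes called higher in SO 9.2% held it, close to the share in kept genes.

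**Figure D3:**
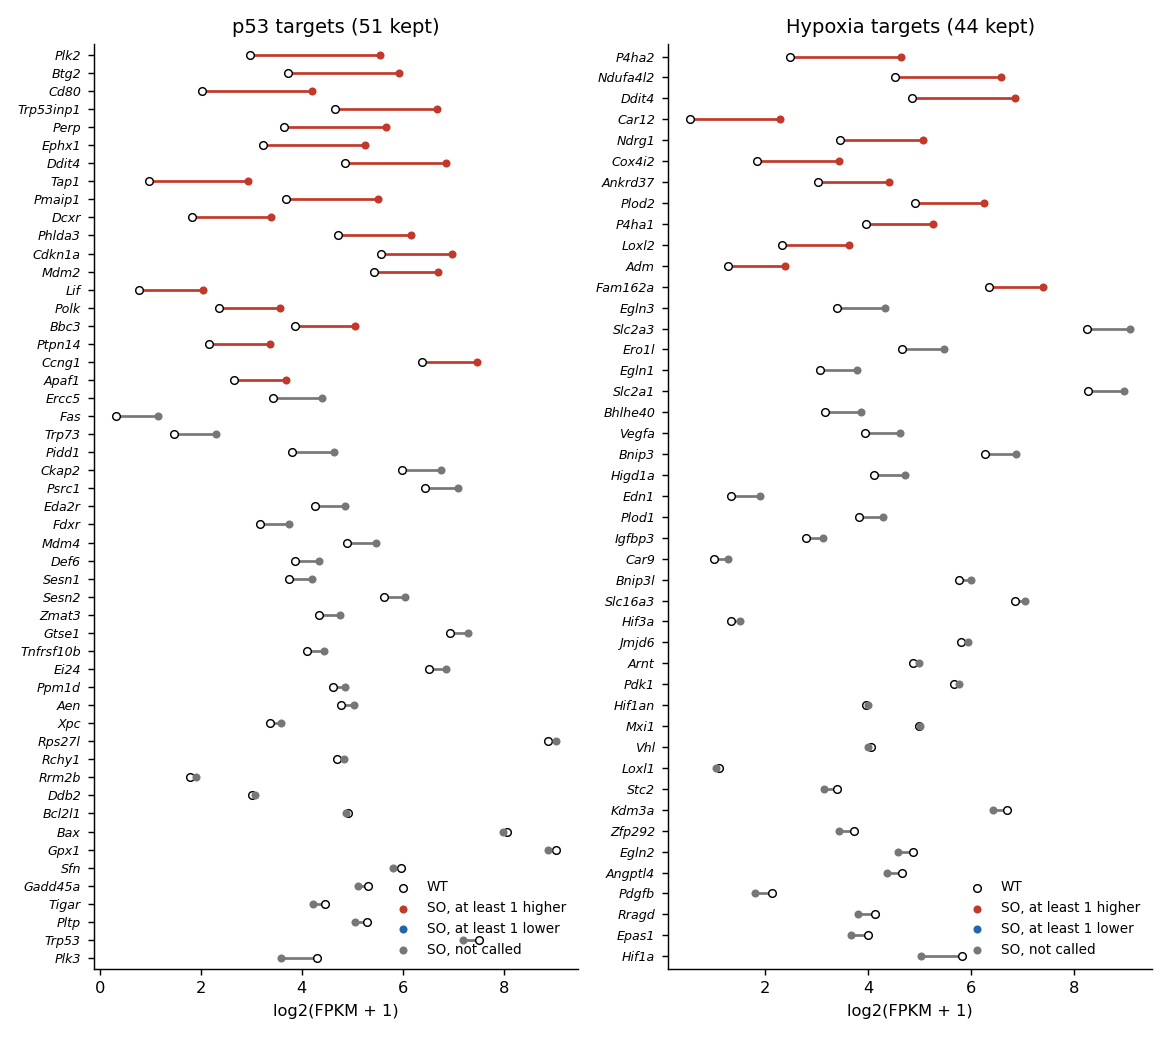
Values of the kept p53 targets and hypoxia targets in WT (open circles) and SO (filled circles) as log2(FPKM + 1), ordered by the difference; red marks genes at least 1 higher in SO, blue genes at least 1 lower and grey genes not called. The 19 called p53 targets and 12 called hypoxia targets stand at the top of each panel, and neither panel holds a blue gene.

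Lactate dehydrogenase and lactate transport held no called gene as deposited among 19 kept of 24, with a median difference of 0.04. That median was -0.17 with a filter of 5. With SO scaled to the sum of WT 2 genes were called higher, Ldhb and Pdk4, and with the median ratio set to 1 Pdk4 alone was. Ldha was at 1774 in WT and 1711 in SO, while Ldha_KO had 154. Ldhb, the subunit that favours the conversion of lactate to pyruvate, was at 76.5 FPKM in WT and 139 in SO, with 158 in Ldha_KO and 5.74 in Ldhb_KO (difference 0.86). Bsg, the chaperone of the monocarboxylate transporters, was at 395 and 530.4, and Emb, its relative, at 86.2 and 46.2. Slc16a1, the lactate transporter MCT1, was at 85.5 and 67.9, and Slc16a3, MCT4, at 115 and 131. Ldhc, the testis subunit, was at 1.24 and 2.58, and Ldhal6b at 0.754 and 1.02. Ldhd, Slc16a7, Slc16a8, Slc5a8 and Slc5a12 were under the filter, the highest of them Ldhd at 0.816 and 0.807.

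Genes for the entry of pyruvate into the mitochondrion and its oxidation were not called as deposited. The mitochondrial pyruvate carrier genes Mpc1 and Mpc2 were at 2.14 and 2.23, and at 13.2 and 11.8. Pyruvate dehydrogenase, which turns pyruvate into acetyl-CoA, has subunits encoded by Pdha1 (126 and 102), Pdhb (81.6 and 71.1) and Dlat (45.1 and 34.9), all a little below WT as deposited. Of the kinases that switch it off, Pdk4 was at 0.882 FPKM in WT and 2.57 in SO, with 1.96 in Ldha_KO and 2.03 in Ldhb_KO (difference 0.93). Pdk1 was at 49.8 and 53.4, Pdk2 at 3.03 and 4.92, and Pdk3 at 28.7 and 18.9. The phosphatase genes Pdp1 and Pdp2, which switch the complex on again, were at 4.33 and 5.01, and at 12.2 and 10.5. None of the 4 kinases was called as deposited, and they lay on both sides of WT. Pdk4 was called higher under either rescaling.

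Glycolysis showed a median difference of 0.36 over 23 kept genes, with 2 called higher (8.7%, against 2.8% of all kept genes) and 0 lower. By step, the median was 0.53 for glucose entry, 0.38 for the upper steps and -0.02 for the lower steps, which turned to 0.14 with SO scaled to the sum of WT. The glucose transporter Slc2a3 was at 303 FPKM in WT and 544 in SO, with 646 in Ldha_KO and 663 in Ldhb_KO (difference 0.84), and Slc2a1 at 307 and 502. Pkm, pyruvate kinase, was at 2319 and 2223, and Aldoa, the main aldolase, at 1738 and 1519.8. The calls, Aldoc at 6.41 and 15.1 and Pgam2 at 3.13 and 11.1, were isoforms of low abundance in these cells. The pentose phosphate pathway held 9 kept genes, 0 called, with a median of -0.30.

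Glycogen metabolism, a list chosen after values were seen, held 6 higher genes among 23 kept, with a median of 0.21. Pygl, the liver glycogen phosphorylase, was at 0.753 FPKM in WT and 4.93 in SO, with 4.16 in Ldha_KO and 6.36 in Ldhb_KO (difference 1.76). Gyg, glycogenin, which primes glycogen, was at 8.19 in WT and 18.5 in SO. The subunits that bring protein phosphatase 1 to glycogen, Ppp1r3b at 0.682 and 2.88 and Ppp1r3c at 0.614 and 2.67, were higher as well. The called genes thus included both a gene of breakdown and genes of synthesis.

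The mitochondrial lists showed no called gene in SO. The TCA cycle had a median of -0.18 over 31 kept genes. With SO scaled to the sum of WT that median was -0.02, with 17 genes below WT and 14 above. All kept genes at 20 to 100 FPKM in the higher library had a median of -0.14 as deposited, and those at 100 or more -0.25. Pcx, pyruvate carboxylase, stood apart from the TCA list at 13.7 and 23.7. The respiratory chain had a median of -0.13 over 50 kept genes, which turned to 0.02 when SO was scaled to the sum of WT. Ribosomal protein genes had the same median of -0.13 over 38 kept genes, which also turned to 0.02 under that scaling. Their 1 call, Rps13 at 2.82 and 0.449, is uncertain, since ribosomal protein genes have processed copies in the genome and its values are the lowest of the list.

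Of 25 kept genes of fatty acid oxidation and carnitine 3 were called higher. Cpt1c, the brain form of carnitine palmitoyltransferase 1, was at 9.4 in WT and 25.2 in SO, and Slc25a20, the mitochondrial carnitine carrier, at 20.9 FPKM in WT and 46.2 in SO, with 34.9 in Ldha_KO and 16.3 in Ldhb_KO (difference 1.11). Plin2, a coat protein of lipid droplets, was at 12.1 and 26.2. With SO scaled to the sum of WT 5 genes of the list were called higher. The list median was 0.03, and Cpt1a, the liver form, stood at 32.1 and 32. In cholesterol and fatty acid synthesis 0 of 43 kept genes were higher, and Scd2, a stearoyl-CoA desaturase, was lower at 179 and 84.7. Under either rescaling Scd2 was no longer called and 1 other gene of the list was higher, Acss2 (6.23 and 13.3), which makes acetyl-CoA from acetate. Scd1 was at 38.9 and 22.6, and Fasn, fatty acid synthase, at 79.9 and 48.5.

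Genes driven by Atf4, the transcription factor of the amino acid starvation response, were mostly below WT in SO. Of 45 kept of 48 listed genes 1 was called higher and 2 lower, with a median of -0.36, and the median stayed below 0 under both rescalings. Atf4 itself was at 213 FPKM in WT and 129.6 in SO, with 218 in Ldha_KO and 264 in Ldhb_KO (difference -0.71). Chac1, which degrades glutathione, was at 17.1 FPKM in WT and 4.07 in SO, with 2.34 in Ldha_KO and 42.4 in Ldhb_KO (difference -1.84). Nupr1, a stress-induced chromatin protein, was at 15.7 FPKM in WT and 5.91 in SO, with 18.9 in Ldha_KO and 62.6 in Ldhb_KO (difference -1.27). For Atf4 and Nupr1 SO was the lowest of the 4 libraries and Ldhb_KO the highest, and for Chac1 Ldha_KO was lower still.

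Of the serine synthesis enzymes, Phgdh was at 46.1 and 28.4, Psat1 at 221 and 111, and Psph at 26.4 and 20.3, none of them called. Transport and tRNA charging held 15 kept genes, 0 called, all 15 below WT as deposited and 13 with SO scaled to the sum of WT. Among them was Slc1a4, a neutral amino acid transporter, at 8.84 and 4.17. Asns, asparagine synthetase, went the other way by a small amount, at 297 and 324. Ddit4, an inhibitor of mTORC1 that is on the p53, hypoxia and Atf4 lists, was the 1 gene called higher, at 28.1 FPKM in WT and 114 in SO, with 50.9 in Ldha_KO and 213 in Ldhb_KO (difference 1.98). Its value therefore cannot be assigned to 1 of the 3 lists.

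The promoters of Chac1 and Nupr1, the called lower genes of the Atf4 list, are shown with the motif TGATGNAA, the site of Atf4 with a C/EBP partner, in capitals (TTNCATCA is its reverse complement). They are RefSeq windows of GRCm38.p6, the 250 bases before the start, at chr2:119350992-119351241 on the plus strand and chr7:126625471-126625720 on the minus strand.
Chac1: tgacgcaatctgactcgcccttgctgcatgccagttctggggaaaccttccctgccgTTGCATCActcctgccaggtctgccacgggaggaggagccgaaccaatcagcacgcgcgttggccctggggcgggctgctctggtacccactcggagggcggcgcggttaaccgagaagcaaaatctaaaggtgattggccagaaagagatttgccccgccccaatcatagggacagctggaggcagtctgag
Nupr1: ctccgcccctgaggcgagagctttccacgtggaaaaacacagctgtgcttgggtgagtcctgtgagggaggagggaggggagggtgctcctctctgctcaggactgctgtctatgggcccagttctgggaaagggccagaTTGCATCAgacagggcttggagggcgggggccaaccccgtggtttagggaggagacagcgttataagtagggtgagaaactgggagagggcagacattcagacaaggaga
TGATGNAA was found on either strand in 13 of the 40 Atf4 list genes with a promoter (32.5%) and in 2.55% of kept genes. Among the list genes kept and not called 8 of 34 held it, Asns and Slc1a4 among them.

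**Figure D4:**
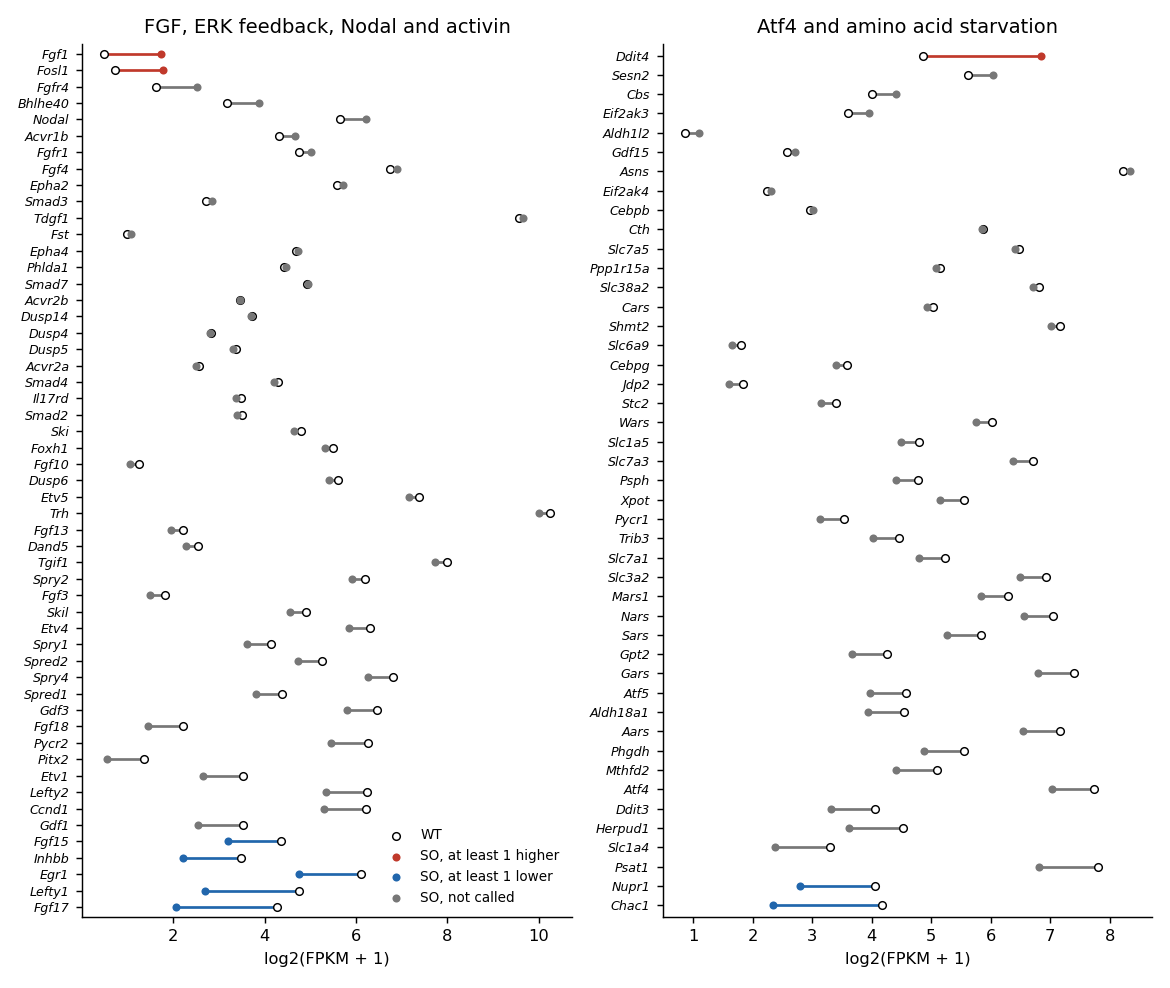
Values of the kept genes of FGF, ERK feedback, Nodal and activin signalling (left) and of the Atf4 list (right) in WT (open circles) and SO (filled circles) as log2(FPKM + 1), ordered by the difference; red marks genes at least 1 higher, blue genes at least 1 lower and grey genes not called. Fgf17 and Lefty1 stand at the foot of the left panel and Chac1 and Nupr1 at the foot of the right, where Ddit4 is the 1 red gene.

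Growth genes were slightly below WT in SO. The Myc network had a median of -0.37 over 38 kept genes, and the median stayed below 0 under both rescalings. All kept genes with 100 FPKM or more in the higher library had a median of -0.25. Of the 38 genes 32 were below WT as deposited and 29 with SO scaled to the sum of WT. Myc was at 66.5 FPKM in WT and 40.5 in SO, with 12.7 in Ldha_KO and 14.8 in Ldhb_KO (difference -0.70), and SO thus lay between WT and the knockouts. Of its targets, Npm1, nucleophosmin, was at 2018 and 1392, and Srm, spermidine synthase, at 279 and 163. The 1 called gene, Mxd4, encodes an antagonist of Myc, and was higher at 4.22 and 10.1.

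Calls among cell cycle genes were mostly inhibitors. Of 10 inhibitors 4 were called higher, and of 16 replication genes and 12 mitotic genes 0 were called either way, with medians of -0.30 and -0.16, the latter 0.00 with SO scaled to the sum of WT. Cdkn2b, the kinase inhibitor p15, was at 1.25 FPKM in WT and 7.22 in SO, with 5.69 in Ldha_KO and 3.88 in Ldhb_KO (difference 1.87). Rb1, the retinoblastoma protein, was at 3.42 in WT and 9.86 in SO, and its relative Rbl2 at 2.95 and 7.41. Another inhibitor, Cdkn1c, was on the other side of WT at 10.7 and 5.68, a difference of -0.80. The 1 called cyclin, Ccna1, the germline cyclin A, was higher at 0.342 and 1.69. Of the cyclins that drive entry into the cycle, Ccnd1 was at 73.6 and 38.6 and Ccne1 at 208 and 114, both short of the threshold. Among replication genes Pcna was at 255 and 180.3.

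Clustered histone genes, a list chosen after values were seen, held 7 lower and 0 higher calls. Of 50 genes 33 were kept, with a median of -0.52. Among all kept genes 0.493% were lower, but this is no check on the 7 of 33, since the list was chosen with its values in view. The list summed to 336 FPKM in WT and 238 in SO, with 310 in Ldha_KO and 337 in Ldhb_KO. H3c3 was at 2.77 FPKM in WT and 0.331 in SO, with 2.14 in Ldha_KO and 7.01 in Ldhb_KO (difference -1.50), and H2bc7 at 2.43 FPKM in WT and 0.387 in SO, with 0 in Ldha_KO and 0.392 in Ldhb_KO (difference -1.31). SO was the lowest of the 4 libraries by sum. Most histone transcripts of this kind lack a poly(A) tail, and the part of RNA selection in these values was not tested. The genes are also near-identical copies.

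Protein stress lists showed few calls. The unfolded protein and heat shock response had 36 kept genes, 0 called, and a median of -0.07 that turned to 0.09 with SO scaled to the sum of WT and to 0.03 with the median ratio set to 1. Small heat shock proteins, chosen after values were seen, held 2 higher genes among 7 kept. Cryab, alpha-B crystallin, was at 2.41 FPKM in WT and 14.5 in SO, with 11.1 in Ldha_KO and 4.87 in Ldhb_KO (difference 2.18), and Hspb2, which lies beside it in the genome, at 3.72 FPKM in WT and 16.3 in SO, with 18.2 in Ldha_KO and 8.98 in Ldhb_KO (difference 1.87). Hspb1, the abundant member of the family, was at 427 and 503.

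The Nrf2 and glutathione list and the metallothioneins had 0 calls. Nrf2 and glutathione genes had a median of -0.12 over 34 kept genes, which turned to 0.03 with SO scaled to the sum of WT. Metallothioneins bind zinc and copper, and Mt1 was at 1506 FPKM in WT and 911 in SO, with 2899 in Ldha_KO and 2354 in Ldhb_KO (difference -0.72), and Mt2 at 2188 FPKM in WT and 1124 in SO, with 3834 in Ldha_KO and 3481 in Ldhb_KO (difference -0.96). SO was the lowest of the 4 libraries for both, and the knockouts lay above WT, a pattern noticed after values were seen. Lysosome and autophagy genes had 0 called among 37 kept, with a median of 0.08, and Wipi1, which marks forming autophagosomes, had their largest difference (2.72 and 6.11).

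The pluripotency network was close to WT in SO. Of 33 core and naive genes, all kept, 0 were higher and 1 was lower, with a median of -0.21. With SO scaled to the sum of WT the median was -0.05, with 17 genes below WT and 16 above. The 3 factors Pou5f1, Sox2 and Nanog differed by -0.25, -0.11 and 0.11. Esrrb was at 239.9 and 207, Klf4 at 124 and 133, and Zfp42, also called Rex1, at 624 and 523. The exception, Gbx2, a homeobox gene induced by LIF and Stat3, was at 27.7 FPKM in WT and 6.85 in SO, with 4.16 in Ldha_KO and 11.1 in Ldhb_KO (difference -1.87), and WT was the highest of the 4 libraries.

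Formative and primed genes, which rise as embryonic stem cells leave the naive state, held 4 lower and 0 higher calls among 21 kept, with a median of -0.39 that stayed below 0 under both rescalings. Under either rescaling 2 of the 4 calls were left, Lef1 and Fgf15, and with a pseudocount of 5 there were 0. Zic2, a zinc finger gene of the primed state, was at 42.9 FPKM in WT and 19.6 in SO, with 30.7 in Ldha_KO and 34 in Ldhb_KO (difference -1.09), and Zic5 at 11.3 and 4.81. Fgf15, a secreted growth factor, was at 19.5 FPKM in WT and 8.22 in SO, with 3.67 in Ldha_KO and 12.4 in Ldhb_KO (difference -1.15). Otx2, a homeobox factor of the formative state, was not called, at 61.6 and 69.4. The de novo methyltransferase genes Dnmt3a and Dnmt3b were at 42.8 and 26.5, and at 69.2 and 44, and their cofactor Dnmt3l at 405 and 436.

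FGF ligands were called in both directions, 1 higher and 2 lower among 8 kept. Fgf17 had the lowest difference of all genes with at least 5 FPKM in the higher library, at 18.3 FPKM in WT and 3.15 in SO, with 6.98 in Ldha_KO and 13.4 in Ldhb_KO (difference -2.22). Fgf1 was called higher from a low base, at 0.406 and 2.31, and Fgf4, the main FGF made by these cells, was at 106 and 117. Feedback inhibitors of ERK, the kinase below the FGF receptor, had 0 calls among 9, with all 9 below WT as deposited and 6 with SO scaled to the sum of WT. Spry4 was at 111 and 75.3, and Dusp6 at 47.4 and 41.3. Egr1, an immediate early target of ERK, was called lower at 68.1 FPKM in WT and 25.9 in SO, with 47.6 in Ldha_KO and 116 in Ldhb_KO (difference -1.36).

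In the Nodal and activin pathway 3 of 4 kept antagonists and 3 of 4 kept ligands were below WT. Lefty1, an inhibitor of Nodal and one of its targets, was at 26 in WT and 5.48 in SO, and Lefty2 at 74.4 and 39.9. Inhbb, a subunit of activin B, was called lower at 10.1 FPKM in WT and 3.65 in SO, with 2.42 in Ldha_KO and 3.24 in Ldhb_KO (difference -1.26). Nodal itself was at 49.3 and 73.6, on the other side of WT. The list held 24 kept genes, 0 higher and 2 lower, with a median of -0.16. With SO scaled to the sum of WT the median was -0.01, close to 0, with 13 genes below WT and 11 above.

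In the LIF and Stat3 pathway 1 of 26 kept genes was higher (3.85%, near the 2.8% of all kept genes) and 2 were lower. Lif, which is also supplied in the medium, was at 0.721 and 3.12, and Socs2, a feedback inhibitor, was lower at 51.9 FPKM in WT and 24.1 in SO, with 25.8 in Ldha_KO and 34.2 in Ldhb_KO (difference -1.08). Socs2 was not called under either rescaling. Socs3, the best known Stat3 target of these cells, was at 76.3 FPKM in WT and 66.9 in SO, with 16 in Ldha_KO and 125 in Ldhb_KO (difference -0.19) and was not called. The BMP and Id list had 0 calls among 19 kept, with Bmp4 at 58.1 and 54.7 and Id1 at 182 and 197.

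The Wnt pathway list held 36 kept genes, 1 higher (2.78%, near the 2.8% of all kept genes) and 1 lower. Lef1, a nuclear partner of beta-catenin, was lower at 9.51 FPKM in WT and 2.46 in SO, with 2.14 in Ldha_KO and 4.36 in Ldhb_KO (difference -1.60), and Wnt6, a ligand, was higher at 2.3 and 6.09. Ctnnb1, beta-catenin, was at 319 and 316, and Axin2, a common readout of the pathway, at 10.7 and 7.14. Among Notch and Hippo targets Nrarp, a Notch feedback gene, was the 1 call of 22, at 2.92 and 7.48, and 3 were called under either rescaling. Immediate early genes, which rise within minutes of a stimulus or of handling, had 2 higher and 1 lower call among 28, and 4 higher under either rescaling. As deposited, the higher calls were 7.14% of that list, against 2.8% of all kept genes. Fos was at 4.3 FPKM in WT and 8.52 in SO, with 80.2 in Ldha_KO and 8.7 in Ldhb_KO (difference 0.85), so the high value of Ldha_KO was not seen in SO.

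**Figure D5:**
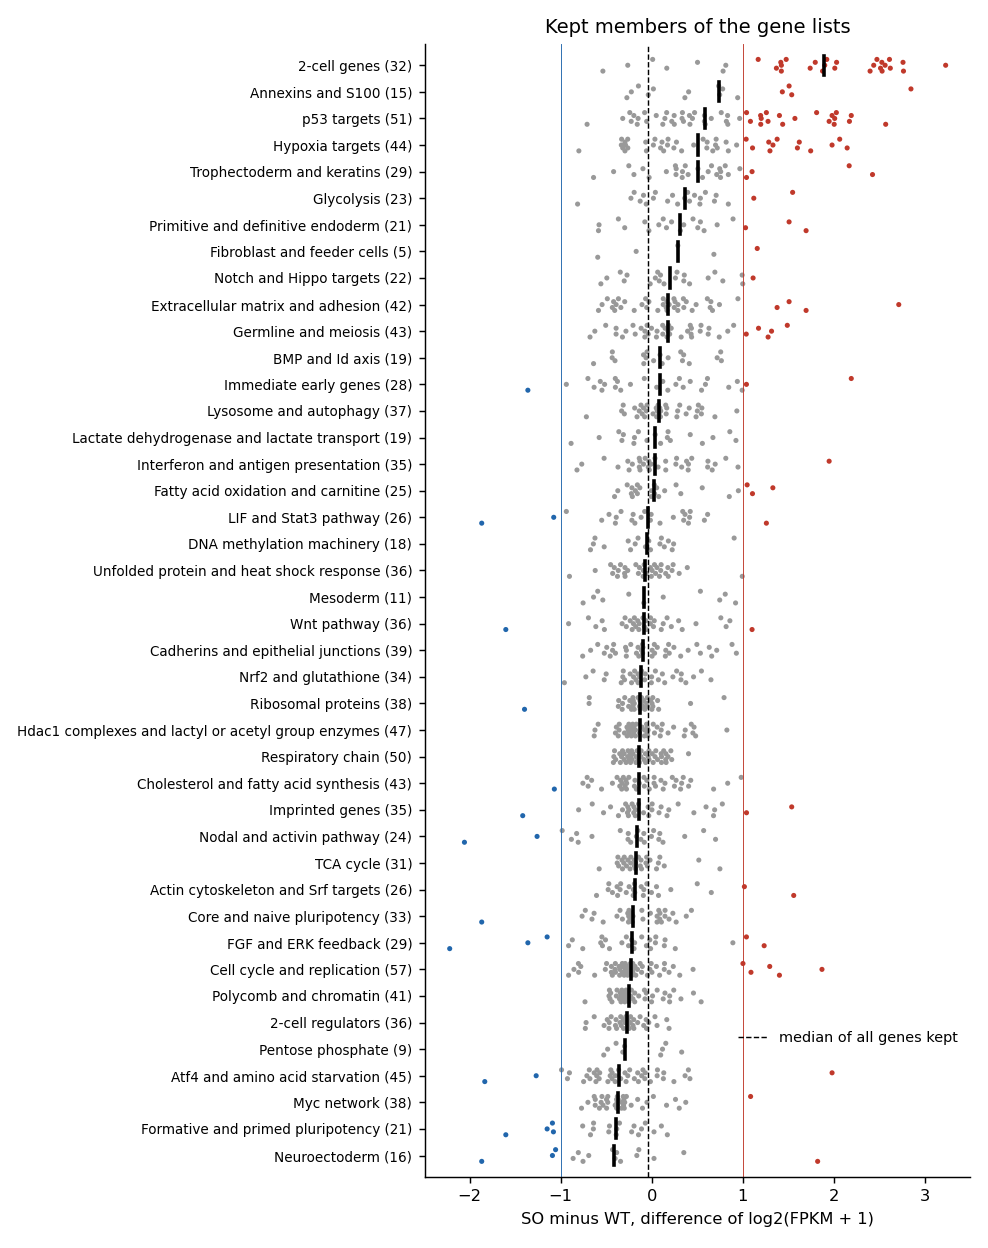
Differences of log2(FPKM + 1), SO minus WT, for the kept members of each gene list, 1 point per gene, red at least 1 higher, blue at least 1 lower, grey not called, with the list medians as black bars and lists ordered by median. The 2-cell list stands farthest to the right with a median of 1.89, followed by lists with medians between 0.51 and 0.74, and 17 of the 42 lists have a median above that of all kept genes (dashed line).

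Called lineage markers were spread over several lineages. Trophectoderm genes and keratins held 4 higher and 0 lower calls among 29 kept, with a median of 0.51, and the list summed to 644 FPKM in WT and 1029.9 in SO, with 1150.3 in Ldha_KO and 1142 in Ldhb_KO. Slc2a3, which is also a glucose transporter of the hypoxia list, makes up much of that sum, and the part of any cell type in these values was not tested. Ly6a, the surface antigen Sca-1, was at 4.63 FPKM in WT and 29.3 in SO, with 7.27 in Ldha_KO and 3.21 in Ldhb_KO (difference 2.43), so SO stood apart from the other 3 libraries. Krt19, a keratin, was called higher at 6.38 and 32.2. Of the 29 kept genes of the list 23 were above WT and 6 below, and the calls were 13.8% against 2.8% of all kept genes. Cdx2, a defining trophectoderm factor, was listed at 0.433 and 0.188, and Elf5 at 0.159 and 0.29, both under the filter.

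Endoderm genes held 3 higher calls among 21 kept of 36 and summed to 518 FPKM in WT and 506 in SO. Of the kept endoderm genes 15 were above WT and 6 below. Col4a1, a basement membrane collagen, was at 6.67 FPKM in WT and 23.8 in SO, with 17.1 in Ldha_KO and 5.96 in Ldhb_KO (difference 1.70), and Cxcr4, a chemokine receptor, at 2.11 and 5.35. The defining factors Gata6 (0.253 and 0.435) and Sox17 (0 and 0.0702) were under the filter. Neuroectoderm genes held 1 higher and 3 lower calls among 16 kept of 31, and their sum was 687 in WT and 468 in SO. The higher call was Neurod1, at 1.56 and 8.06. Of the 16 kept genes 3 were above WT and 13 below. Tubb3, a neuronal tubulin, was at 159 and 93.6, and En2, a homeobox gene of the midbrain, was lower at 5.5 and 2.12. Under either rescaling the lower calls went from 3 to 1, which was Gbx2. Pax6 (0.818 and 0.442) and Sox1 (0.883 and 0.281) were under the filter, and mesoderm genes had 0 calls among 11 kept of 27. The neuroectoderm sum holds Gbx2 and Zic2, which are pluripotency genes as well.

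Germline and meiosis genes held 5 higher and 0 lower calls among 43 kept, with a median of 0.18. The higher calls were 11.6% of the kept members, against 2.8% of all kept genes. Stra8, which opens the meiotic programme, was at 2.71 FPKM in WT and 9.41 in SO, with 31 in Ldha_KO and 14.8 in Ldhb_KO (difference 1.49). Rec8, the meiotic cohesin subunit, was at 4.86 in WT and 13.2 in SO, and Dazl, a translational regulator in germ cells, was not called at 13 and 24. WT was the lowest of the 4 libraries and Ldha_KO the highest for Stra8. Of the core meiotic genes, Sycp3 was at 23.5 and 17.7.

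Genes of the cell surface and its surroundings included some of the largest differences. Annexins and S100 proteins, which bind calcium and membranes, held 4 higher calls among 15 kept, with a median of 0.74. Anxa2 was at 24.5 FPKM in WT and 73.2 in SO, with 64.2 in Ldha_KO and 110.4 in Ldhb_KO (difference 1.54), and S100a6 at 30.0 FPKM in WT and 87.2 in SO, with 41.9 in Ldha_KO and 90.8 in Ldhb_KO (difference 1.51). Extracellular matrix and adhesion genes held 4 higher and 0 lower calls among 42 kept, among them Serpine2, a protease inhibitor, at 11.5 FPKM in WT and 80.8 in SO, with 45.6 in Ldha_KO and 32.3 in Ldhb_KO (difference 2.71), and Mmp2, a gelatinase, at 6.12 and 17.5. Cadherins and junction genes had 0 calls among 39 kept, and Cdh1, E-cadherin, was at 224 and 209.

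The actin cytoskeleton list had 2 higher calls among 26 kept and a median of -0.19. With SO scaled to the sum of WT the median of these genes was -0.04, with 15 below WT and 11 above. Cald1, caldesmon, was at 5.92 in WT and 19.4 in SO, whereas the abundant actins were at 1959 and 1452 for Actb and 640.4 and 420.1 for Actg1. In the interferon and antigen presentation list 1 of 35 kept genes was called higher (2.86%, near the 2.8% of all kept genes). It was Tap1, the peptide transporter, at 0.965 FPKM in WT and 6.59 in SO, with 3.27 in Ldha_KO and 5.15 in Ldhb_KO (difference 1.95). B2m, the light chain of class I molecules, was at 22.2 and 43.7 and was not called as deposited; under either rescaling 2 genes of the list were. Of the defining interferon-stimulated genes, Isg15 was listed at 0 in both libraries and Ifit1 at 0.0312 in WT against 0 in SO.

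Imprinted genes, expressed from 1 parental copy, held 2 higher (5.71%, against 2.8% of all kept genes) and 1 lower call among 35 kept. Sgce and Peg10, paternally expressed neighbours that share a promoter region, were at 1.24 and 5.51, and at 47.6 and 99. Phlda2, a maternally expressed gene known for limiting placental growth, was at 94.2 FPKM in WT and 34.6 in SO, with 65.8 in Ldha_KO and 102 in Ldhb_KO (difference -1.42). The maternally expressed H19 (1.65 and 1.57) and Meg3 (3.51 and 2.7) stood near WT in SO, while Ldhb_KO had 28.7 and 14.

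Chromatin lists held no called gene. Hdac1 was at 56.1 FPKM in WT and 49.4 in SO, with 42 in Ldha_KO and 44.7 in Ldhb_KO (difference -0.18). The 47 kept genes of its complexes and of lactyl or acetyl group enzymes had a median of -0.13, which turned to 0.02 with SO scaled to the sum of WT. Ep300, an acetyltransferase that can also transfer lactyl groups, was at 23.1 and 19.9, and Sirt4, a mitochondrial sirtuin, had the largest difference at 0.83. Polycomb and related chromatin genes had a median of -0.25 over 41 kept, and DNA methylation genes -0.05 over 18, the latter on the other side of 0 under both rescalings. Tet1, which oxidises methylated cytosine, was at 40.3 and 27.7.

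Most called genes were in none of the 42 lists, 262 of the higher and 46 of the lower. The lists hold 1418 distinct genes in all, so most of the 12586 kept genes are in none of them either. The following were chosen after their values were seen. Sdc4, a heparan sulfate proteoglycan of the cell surface, was at 26.1 FPKM in WT and 107 in SO, with 69.3 in Ldha_KO and 42.2 in Ldhb_KO (difference 2.00), and Eng, a co-receptor of TGF-beta, at 11.9 FPKM in WT and 39.2 in SO, with 22.8 in Ldha_KO and 17.1 in Ldhb_KO (difference 1.64). In both SO was the highest of the 4 libraries and WT the lowest.

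Secreted and transport proteins followed the same order in part. Gpx3, a secreted glutathione peroxidase, was at 14.1 FPKM in WT and 50.4 in SO, with 33.3 in Ldha_KO and 31.8 in Ldhb_KO (difference 1.77), and A2m, a protease inhibitor of plasma, at 9.34 FPKM in WT and 34.8 in SO, with 26.3 in Ldha_KO and 24.2 in Ldhb_KO (difference 1.79). Aqp3, a channel for water and glycerol, was at 15.4 FPKM in WT and 44 in SO, with 62.6 in Ldha_KO and 14.8 in Ldhb_KO (difference 1.46), with Ldha_KO the highest. Snora74a, a small nucleolar RNA, was listed at 0 in WT and 27.5 in SO, with 16.2 in Ldha_KO and 0 in Ldhb_KO. Short RNAs of this kind are captured unevenly in polyadenylated libraries. LOC105246046, with the next highest difference, was also at 0 in WT, with 9.01 in SO.

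On the lower side, Ina, the neuronal intermediate filament protein internexin, was at 24.8 FPKM in WT and 6.61 in SO, with 10.7 in Ldha_KO and 17.7 in Ldhb_KO (difference -1.76). Prph, peripherin, of the same filament family, was at 21.7 in WT and 9.45 in SO, a call lost with SO scaled to the sum of WT, and Hopx, a homeodomain protein without DNA binding, at 10.5 FPKM in WT and 3.39 in SO, with 4.93 in Ldha_KO and 5.38 in Ldhb_KO (difference -1.39). Nab2, a corepressor of Egr1 and one of its targets, was at 20.7 FPKM in WT and 8.12 in SO, with 16.1 in Ldha_KO and 21.7 in Ldhb_KO (difference -1.25), and SO was the lowest of the 4 libraries as it was for Egr1. Fubp1, a DNA-binding regulator of Myc, was at 58.3 FPKM in WT and 25.6 in SO, with 60.2 in Ldha_KO and 63.4 in Ldhb_KO (difference -1.15), with WT and both knockouts close together. The remaining genes among the 15 lowest with at least 5 FPKM in the higher library were Ifitm5 (6.26 and 1.58), Atcay (7.13 and 2.29) and Gm4984 (6.29 and 2.08).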

How the data were processed

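RNA-seq of mouse embryonic stem cells gave 4 libraries, each the only one of its group, and WT and SO were compared. Each deposited table gives 1 value per gene symbol, read here as FPKM from its values, since no file header names the unit, and FPKM and RPKM cannot be told apart from them. The submitters' processing notes name the mm9 build and the tools edgeR 3.26.8, HTSeq 0.11.2, SAMtools 1.9 and Bowtie2 2.3.4.3, without saying which step each served. Low values fell on steps of 1 read: 74.9% of 1484 ratios of SO to WT lay within 0.2% of a ratio of whole reads, against 1.89% with the step moved by 5%, which gave the depth of SO as 1.05 times that of WT. That step was not found for all genes, total reads are unknown, and no count model was run.

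Genes with at least 1 FPKM in either library were kept, 1 was added to each value, and differences of log2 values were called at a size of 1 or more, with no test. The members, lists and alternatives were chosen with earlier results of these data known. There were 42 gene lists with 1560 entries, of which 1555 were found in the tables, 9 of them by a synonym, and 4 more lists (glycogen metabolism, small heat shock proteins, metallothioneins and clustered histones) were written after values were seen. Named genes are the 15 highest and 15 lowest differences among genes with at least 5 FPKM in the higher library, the genes of the lactate list, up to 6 kept members of each list with the largest differences, and 13 set names. Any other gene in the text was picked with its values in view. The rule of calls was run on WT values with set fold changes put into well expressed genes. That checks its arithmetic and not its calls at low values. Tools were Python 3.11.15, pandas 2.3.3, numpy 2.4.6, Biopython 1.88 and matplotlib 3.10.9. Promoters are RefSeq windows in GRCm38.p6, matched by symbol for 10038 of the kept genes. The 6 alternatives changed the pseudocount (0.1 or 5), the filter (none or 5) or the scaling of SO (equal sums, a factor of 1.12, or a median ratio of 1, a factor of 1.08).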

Additional observations from a re-analysis of the deposited data

How the results depend on the processing

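The number of genes called higher in SO went from 353 to 728 with a pseudocount of 0.1, to 85 with a pseudocount of 5 and to 221 with a filter of 5. The number called lower went from 62 to 156, 9 and 36 under the same settings. With a pseudocount of 5 the called 2-cell genes went from 25 to 13, since most of them have low values in WT. Scaling SO to the sum of WT moved the median of all kept genes from -0.04 to 0.10 and the share of higher genes among calls from 85.1% to 91.9%. Under that scaling 12 of the 42 list medians changed sign, and with the median ratio set to 1, 5 did. Of the 86 called genes among the 262 that the naming rule gives, 41 were still called with a pseudocount of 5 and 81 under either rescaling. A reversal of a call was not possible under the 6 alternatives. A pseudocount or filter keeps the sign of a difference, and the rescalings move it by at most 0.16. Of 468 list counts compared, 388 were the same or within 1.5 times, which says little about stability. Many of these counts were 0 in every setting. Dropping the filter could not change a count, since values both under 1 FPKM differ by less than 1 on this scale. No paired analysis was possible because each group has 1 library, and for the same reason no library could be left out. Differences at low values rest on few reads.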
